A study of Mus musculus with 18 samples.

Results

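The regions described here are stretches of chromatin where macroH2A2-GFP was called 6 hours after its induction in cells treated with the EZH2 inhibitor GSK126, and where no region was called in any library of untreated cells. They were selected from the called regions of the 6h_GSK126 library as those with the authors' score of 2 or more, on autosomes other than 8, 15 and 17, without a single base in the regions of the untreated 0h, 6h, 24h and 5d libraries. Of 79959 regions of 6h_GSK126, 65049 lay on the 16 autosomes used and 40394 of these had the required score. Of those 40394, 9085 had no base in 6h regions, 8580 were also free of 0h regions, 6762 also of 24h regions, and 5799 (14.4%) of 5d regions as well. These 5799 GSK126-only regions held 12.5 Mb. The other 34595 regions of 6h_GSK126 that met the score and chromosome criteria, each with a base in at least 1 untreated library, are called the other 6h_GSK126 regions. Presence in 6h_GSK126 and absence from the 4 untreated libraries are what selected the regions and are not findings.

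The cells were a line of SV40-immortalized dermal fibroblasts (iDF) from newborn male mice on a 129/S6 background, at passages 20 to 30. All of them carried a double knockout of macroH2A1 and macroH2A2 and a transgene for macroH2A2-GFP that doxycycline (dox) switches on, so the tagged protein is the form that was immunoprecipitated. The untreated ChIP libraries had no dox (0h) or dox at 0.5 ug/ml, given over 6 hours, 24 hours or 5 days. The 6h_GSK126 and 24h_GSK126 cells were kept in 5 uM GSK126 over 10 days before 6 or 24 hours of the same dox dose, and the 24h_FP cells had 24 hours of dox, the last 18 of them with flavopiridol at 0.5 uM. A further library held H2A.Z from wild-type female primary dermal fibroblasts of newborn 129/S6 mice at passage 0 to 1. Poly(A) RNA was counted in 3 replicates each at 0h, 6h and 24h of dox in untreated cells, and no RNA of GSK126-treated cells and no ChIP library of GSK126-treated cells without dox was used here. The promoter and insertion site of the transgene and whether the line is 1 clone are not given in the sources used here.

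MacroH2A proteins are variants of histone H2A that carry a large macro domain and are found in broad domains, mostly over chromatin that is not transcribed. EZH2 is the catalytic subunit of Polycomb repressive complex 2, which trimethylates lysine 27 of histone H3, and GSK126 blocks that activity. Flavopiridol inhibits CDK9, the kinase that releases paused RNA polymerase II into elongation. The study, by its title, concerned the removal of macroH2A along with transcription and how that bounds its domains, and the GSK126 libraries ask how EZH2 activity bears on where macroH2A2 is found early and late after induction.

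With 1 ChIP library per condition, each comparison between conditions describes those libraries and has no replicate check. Intervals in brackets are exact Clopper-Pearson 95% intervals over regions or genes, which cover counting error only, since neighbouring regions are not independent. The files give regions and not reads, so the read depth behind a region is unknown, and absence of a region means that none was called. The 6h_GSK126 list was the longest of the 8 macroH2A2 lists, which held 14050 to 79959 regions (28980 to 79959 when the list with 1000-base windows is left out). Its regions had a median length of 3400 bases against 4200 bases at 6h, and whether the calling depth of 6h_GSK126 bears on the size of the GSK126-only set was not tested. RNA libraries held 29338093 to 37793178 counts over genes. At 0h, 11 of 12 fibroblast markers had 1 CPM or more (counts scaled to library size) and their summed level was 14666 to 14889 CPM over the 3 libraries. Of markers of other cell types, 2 of 6 for keratinocytes and 1 of 5 or 6 in each of the other lists reached 1 CPM, with summed levels of at most 169 CPM.

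Sequences are shown for gene starts that lie inside GSK126-only regions, because they differ from most gene starts in how few CpG dinucleotides they hold. For 45 listed starts of 44 protein-coding genes, the stretch from 250 bases before to 50 bases after the start lay wholly inside a GSK126-only region (17575 starts on 15 autosomes were examined). These 45 starts held a median of 4 CG (the letters CG, which read the same on both strands), against 13 over all starts, and 20.0% of them held 10 or more against 57.4% of all. The 556 starts inside the other 6h_GSK126 regions had a median of 5 and 26.3% with 10 or more, so low CG content is shared by both sets. The 250 bases before 5 of these starts follow, from RefSeq GRCm38.p6, 5' to 3' on the gene's strand, with each CG in capitals. They were chosen after their values were seen, to show CG-poor and CG-rich starts, silent and expressed genes, and regions present and absent in 24h_GSK126.
Sele (chr1:164047984-164048233, plus strand): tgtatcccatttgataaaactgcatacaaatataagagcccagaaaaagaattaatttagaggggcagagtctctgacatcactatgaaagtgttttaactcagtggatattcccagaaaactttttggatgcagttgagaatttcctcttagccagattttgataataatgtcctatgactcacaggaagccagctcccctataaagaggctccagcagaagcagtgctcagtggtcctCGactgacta
Mmp10 (chr9:7502092-7502341, plus strand): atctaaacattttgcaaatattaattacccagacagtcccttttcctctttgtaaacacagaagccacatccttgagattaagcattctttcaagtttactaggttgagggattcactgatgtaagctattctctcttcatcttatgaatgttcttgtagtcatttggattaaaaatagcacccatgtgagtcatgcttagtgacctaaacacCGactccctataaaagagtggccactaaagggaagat
Dbx1 (chr7:49636836-49637085, minus strand): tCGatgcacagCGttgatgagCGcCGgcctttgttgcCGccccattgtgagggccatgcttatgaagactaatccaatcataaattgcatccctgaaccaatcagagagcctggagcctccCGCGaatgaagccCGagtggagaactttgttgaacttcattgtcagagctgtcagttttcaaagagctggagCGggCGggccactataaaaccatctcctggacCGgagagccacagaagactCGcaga
Rcan1 (chr16:92400079-92400328, minus strand): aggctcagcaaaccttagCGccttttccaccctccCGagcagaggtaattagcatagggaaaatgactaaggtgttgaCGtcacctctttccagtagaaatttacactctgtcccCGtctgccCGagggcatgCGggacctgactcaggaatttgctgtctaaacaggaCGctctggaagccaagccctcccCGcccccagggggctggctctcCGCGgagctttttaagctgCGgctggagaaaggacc
Snrnp48 (chr13:38204689-38204938, plus strand): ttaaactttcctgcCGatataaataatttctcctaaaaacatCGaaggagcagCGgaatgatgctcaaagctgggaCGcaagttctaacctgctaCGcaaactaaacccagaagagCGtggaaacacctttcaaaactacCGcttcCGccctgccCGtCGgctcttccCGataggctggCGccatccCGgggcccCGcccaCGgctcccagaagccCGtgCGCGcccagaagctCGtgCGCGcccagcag
Sele, which encodes the endothelial adhesion receptor E-selectin, had 1 CG in this stretch, no RNA counts at 0h and a region with a base in 24h_GSK126. Mmp10, a secreted matrix metalloproteinase gene, also had 1 CG, 0.0503 CPM, and a region present in 24h_GSK126. The starts of its neighbours Mmp3 and Mmp27 were inside GSK126-only regions too. Dbx1, a homeobox gene of neural progenitors, held 12 CG and Rcan1, which encodes a regulator of calcineurin, 11. The Dbx1 gene had no RNA counts at 0h and Rcan1 had 13.5 CPM, and the regions at both starts were absent from 24h_GSK126. Snrnp48, a gene of the minor spliceosome, held 21 CG and had 24.7 CPM, and its region was present in 24h_GSK126. Of the 40 genes with RNA rows among these 44, 22 were silent at 0h (under 0.1 CPM) and 13 had 10 CPM or more. Over all starts these classes held 5756 and 5876 of 14025 genes with RNA rows, and over the starts inside the other 6h_GSK126 regions 200 and 108 of 487. RNA was counted per gene, and the 17575 starts belonged to 14431 genes, so a gene's level need not be that of the start shown.

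A second group of sequences lies in the GSK126-only regions of chromosome 7. Of 13 hairpins of the Mir344 family on that chromosome, 4 lay wholly inside GSK126-only regions and 8 inside any region of 6h_GSK126, against 2 in 6h regions and 0 in 0h, 24h and 5d regions. The family was chosen after its values were seen, and the 4 hairpins inside GSK126-only regions are outside the untreated regions by the selection rule. Of the 7 mature miRNAs listed for these 4 hairpins, 5 are shown to compare seeds, 5' to 3' with the seed, bases 2 to 8, in capitals (RefSeq GRCm38.p6).
mmu-miR-344d-3p (chr7:61683127-61683148, minus strand): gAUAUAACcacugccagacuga
mmu-miR-344e-3p (chr7:61735539-61735560, minus strand): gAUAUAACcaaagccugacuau
mmu-miR-344b-3p (chr7:61790522-61790543, minus strand): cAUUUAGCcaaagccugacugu
mmu-miR-344d-1-5p (chr7:61683166-61683189, minus strand): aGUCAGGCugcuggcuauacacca
mmu-miR-344b-5p (chr7:61790556-61790578, minus strand): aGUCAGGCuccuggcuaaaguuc
The seed is the same in mmu-miR-344d-3p and mmu-miR-344e-3p. Another is shared by mmu-miR-344d-1-5p and mmu-miR-344b-5p, and mmu-miR-344b-3p has a seed of its own among these 5. The regions of Mir344d-1, Mir344d-2 and Mir344e were present at the hairpins in 24h_GSK126, and that of Mir344b was not. These hairpins stand in the window from 61 to 62 Mb of chromosome 7, where 18 GSK126-only regions lay and no protein-coding gene hosted any.

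GSK126-only regions were short and mostly close to the score threshold. Their median length was 1800 bases (quartiles 1200 and 2800, range 200 to 14600), against 3400 for the other 6h_GSK126 regions. Scores of 2 were found for 3894 regions (67.1%), 3 for 1171, 4 for 412, and 5 or more for 322, with a highest score of 35. Just outside the threshold, 6769 regions had a score of 1 and otherwise met the rule. They were longer (median 3600 bases), more often had their midpoint in a protein-coding gene (75.7%, against 52.4% for the GSK126-only regions), and 10.6% of them had a base in 24h_GSK126. The nearest region of an untreated library was a median of 11000 bases away (quartiles 3800 and 31800). For 142 regions (2.45%) it was under 1 kb away, and for 366 (6.31%) over 100 kb.

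The highest scores belonged to short regions, of 200 to 2800 bases. The region with a score of 35 was 200 bases long and lay in Dync1i1, a cytoplasmic dynein intermediate chain gene (chr6:5993601-5993800). A 400-base region with a score of 21 lay in the T cell receptor alpha locus Tcra (chr14:53803401-53803800), and one of 19 on chromosome 18 lay outside RefSeq genes (chr18:81225601-81226200). Col28a1, which encodes a collagen of peripheral nerve, held regions with scores of 18 and 13. Of the 10 highest-scoring regions, 1 had a base in 24h_GSK126, the 200-base region of Col28a1 (chr6:8141801-8142000), and none in 24h_FP. Near gene starts, the highest scores were 13 at Klrc2, which encodes a natural killer cell receptor, 12 at Pcbd2, 9 at Nid1, 8 at Arsb and 7 at Isoc2b, and none of these 5 had a base in 24h_GSK126.

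The longest regions split between the GSK126 and flavopiridol libraries. The longest of all covered 14.6 kb of Scn3a, a neuronal sodium channel gene (chr2:65493801-65508400), and lay wholly within a region of 24h_GSK126. Of the 10 longest, 7 had a base in 24h_GSK126, with 62.0 to 100% of their bases covered, and none of these 7 had a base in 24h_FP. The 2 of the 10 with bases in 24h_FP had none in 24h_GSK126. A 10.2 kb region at the start of Syne3, which encodes a nesprin of the nuclear envelope (chr12:104998201-105008400), had 0% of its bases in 24h_GSK126 and 76.5% in 24h_FP. The 9.8 kb region in Cux1, a homeodomain transcription factor gene (chr5:136530001-136539800), had 0% and 83.7%.

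GSK126-only regions lay in genes more often than the other regions of the same library. The selection bears on this, since it bars regions of the untreated 24h library. That library had a base in 85.7% of the other regions between protein-coding genes and in 30.8% of those in genes with 10 CPM or more. How far this shaped the shares below was not tested. Any base in a RefSeq gene was found for 3720 of 5799 (64.1% [62.9 to 65.4]), against 53.3% of the other 6h_GSK126 regions, 54.7% of the 6h regions and 58.7% of a mirror set of 1571 6h regions absent from 0h, 6h_GSK126 and 24h_GSK126. The midpoint fell in a protein-coding gene for 52.4% [51.1 to 53.6], against 35.8% [35.3 to 36.3] of the other 6h_GSK126 regions, 35.9% of the 6h regions, 46.3% of the mirror set and 40.1% of the bases of the chromosomes. The share with any base in a protein-coding gene was above that of the other regions on 16 of 16 chromosomes (chromosomes of a library are not replicates). The midpoint share was above that of the other regions at each length, with 46.7% against 33.9% at 200 to 1000 bases, 51.1% against 35.8% at 1200 to 2000, 57.7% against 37.3% at 2200 to 4000 and 50.1% against 35.6% at 4200 to 8000.

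Within genes the GSK126-only regions were spread over the whole body. In protein-coding genes of 10 kb or more with a known strand, the 20% of the gene nearest its start held 25.1% of 2451 midpoints and the last 20% held 16.9%, and the corresponding shares for the other 6h_GSK126 regions were 24.3% and 17.2%. A base within 1 kb of a protein-coding gene start was found for 334 of 5616 (5.95% [5.34 to 6.60]), against 8.04% [7.75 to 8.34] of the other regions and 9.53% of the 6h regions, which are longer. By midpoint the order was the reverse, 1.73% [1.40 to 2.10] against 1.09% [0.983 to 1.21], with 1.51% of the bases of the chromosomes within that distance.

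GSK126-only regions were denser in genes with more RNA. Genes were classed by their mean CPM at 0h, in cells without dox or GSK126. Genes under 0.1 CPM are called silent, those from 0.1 and below 1 low, those from 1 and below 10 medium, and the rest high. CPM are not corrected for transcript length. GSK126-only regions took 5.01 bases per kb of gene span in silent genes, 6.85 in low, 8.22 in medium and 10.3 in high ones, against 4.51 outside protein-coding genes. The other 6h_GSK126 regions had a different order, with 38.7, 130, 112 and 71.0 bases per kb in the same classes and 84.8 outside genes. The mirror set had 1.09, 2.74, 3.26 and 2.57 bases per kb and 1.50 outside genes, so its density was highest in medium genes. The 6h regions of untreated cells followed the order of the other 6h_GSK126 regions, with 34.8, 131, 113 and 64.1 bases per kb, and 89.4 outside. Of GSK126-only regions with a midpoint in a classed gene, 53.7% were in high genes, against 41.6% of the other regions and 48.4% of the mirror set, and the share of all regions with a midpoint in a high gene was above that of the other regions on 16 of 16 chromosomes. The selection bears on this order too. The barred 24h library had a base in 83.4% of the other regions in silent genes and 85.7% between genes, against 30.8% in high genes. The mirror set was not barred from that library, and how far the bar shaped the order was not tested.

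**Figure D1:**
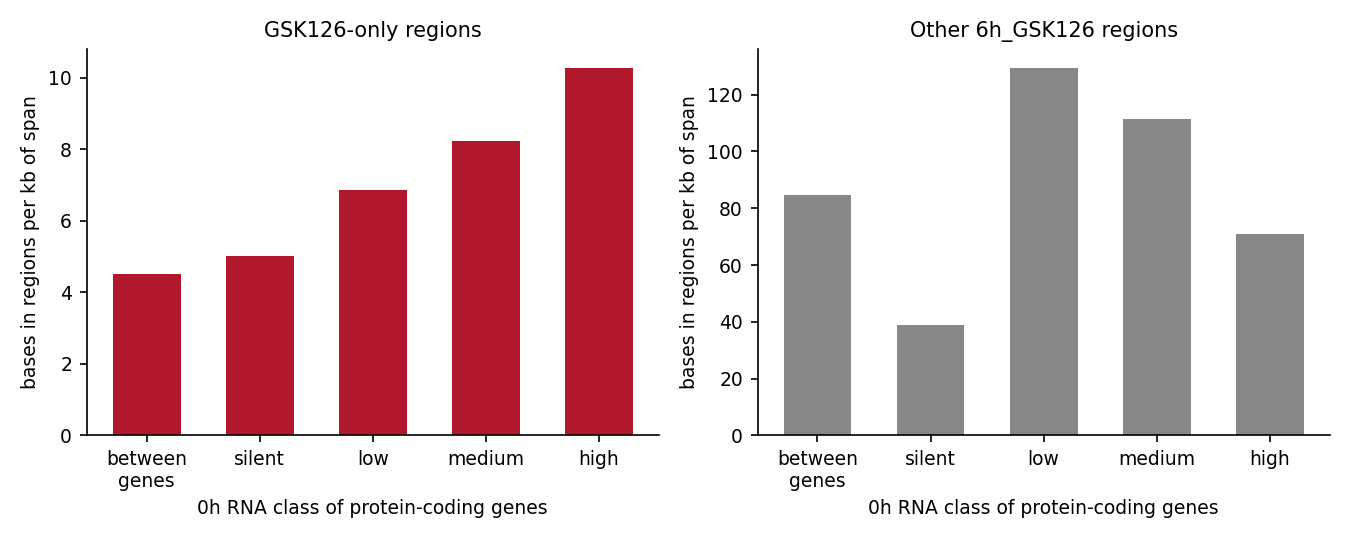
Bases inside regions per kb of span (vertical axes, from 0, with different scales), for GSK126-only regions (left) and the other 6h_GSK126 regions (right), outside protein-coding genes and in genes classed by 0h RNA. GSK126-only regions rise from 4.51 outside genes to 10.3 in highly expressed genes, while the other regions are densest in genes with low RNA, at 130.

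In all, 2040 of 17787 protein-coding genes on these chromosomes (11.5%) held a base of a GSK126-only region and are called host genes. Host genes were long, with a median span of 79.8 kb against 17.7 kb for all genes, and 1459 held 1 region, 581 held 2 or more and 67 held 5 or more. Of the 2026 with an RNA row, 462 (22.8% [21.0 to 24.7]) were silent at 0h and 1154 (57.0% [54.8 to 59.1]) were high, against 41.2% and 41.3% of all 17184 protein-coding genes with a row. Genes with other 6h_GSK126 regions were 30.6% silent and 42.8% high. Among genes under 30 kb, 22.8% of 465 host genes were silent and 54.2% high, against 47.9% and 34.7% of all genes of that span. Genes of that span with other 6h_GSK126 regions were 38.8% silent and 31.8% high. From 30 to 100 kb hosts were 21.8% silent and 65.4% high, against 26.6% and 48.5% of genes with other regions. At 100 kb or more this difference was nearly gone, with 23.6% and 51.4% of hosts against 24.1% and 50.9%. Among genes of 100 kb or more, 46.1% of high and 56.8% of medium genes were hosts, against 30.1% of silent ones. For 560 host genes (27.5%) no untreated library, 0h to 5d, had a base anywhere in the gene, against 9023 (50.7%) of all protein-coding genes.

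The 10 genes with the most bases in GSK126-only regions spanned 212 to 1973 kb, and 6 of them were silent. Dlg2, which encodes a scaffold protein of synapses (chr7:90476188-92449246), held the most, with 22 regions and 46.6 kb. Its RNA was 1.70, 1.59 and 1.27 CPM in the 3 libraries at 0h. Next were Ccser1 with 14 regions and 32.6 kb (1.60 ± 0.267 CPM, SD, n = 3, as for all CPM below) and Slc25a21, a mitochondrial carrier gene, with 11 regions and 31.8 kb and no counts at 0h. Col25a1, a transmembrane collagen gene, Tnr, which encodes tenascin-R of the brain matrix, Tmtc1, Cfap299 and Mctp1 held 22.9 to 29.5 kb each, and all 5 were silent. Highly expressed genes were among the 10 as well. Gmds, which encodes the dehydratase of GDP-fucose synthesis (chr13:31819583-32338762), held 11 regions and 29.8 kb at 21.0 ± 1.21 CPM, and Mast4, a microtubule-associated kinase gene (chr13:102732486-103335099), 14 regions and 28.6 kb at 105 ± 2.32 CPM.

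Of the host genes with the most RNA at 0h, 4 are given here, and they had little or no coverage at 24h of dox, with or without GSK126. Coverage of a gene here counts all regions, so its level in 6h_GSK126 holds what the selection put there. Cald1, which encodes the actin-binding protein caldesmon, had 1400, 1382 and 1336 CPM at 0h, and 3 GSK126-only regions covered 11 kb of it. Regions covered 10.7% of Cald1 in 6h_GSK126, 3.77% at 6h and 0% at 0h, 24h, 5d, 24h_FP and 24h_GSK126. Eif3a, a translation initiation factor gene, at 942 ± 23.3 CPM had coverage only in 6h_GSK126 among the 7 macroH2A2 libraries with 200-base windows, over 10.8% of its span. Anxa2, which encodes annexin A2, was covered over 53.0% in 6h_GSK126, 25.2% at 6h and 60.4% in 24h_FP, and 0% at 24h and in 24h_GSK126. Lrp1, an endocytic receptor gene, had 19.6%, 5.11% and 41.3% in the same 3 libraries, and 1.98% in 24h_GSK126.

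Most GSK126-only regions were not present at the later time of the same treatment. A region with a base in 24h_GSK126 is called kept or present. This held for 1372 of 5799 (23.7% [22.6 to 24.8]), against 76.2% [75.8 to 76.7] of the other 6h_GSK126 regions. The selection bears on this difference, since it bars GSK126-only regions from the untreated 24h library, in which 76.4% of the other regions had a base. At least 50% of their bases were covered in 1320 of the 1372 regions. Regions of 24h_GSK126 with a score of 1 count here, and against those with a score of 2 or more the share was 15.0%. Over bases, 24h_GSK126 covered 24.6% of GSK126-only sequence and 1.57% of all sequence outside the untreated regions. The mirror set offers a similar step in untreated cells, though its selection was not the same. It was not barred from the 5d library, in which 25.0% of it had a base, while GSK126-only regions were. Of its 1571 regions, seen at 6h without GSK126 and absent with it, 537 (34.2% [31.8 to 36.6]) had a base at 24h. Regions with a score of 2 were present in 22.8% of cases, of 3 in 25.5%, of 4 in 30.1% and of 5 or more in 18.9%. Longer regions were present more often, from 18.1% at 200 to 1000 bases to 43.2% at 4200 to 8000.

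Presence at 24h_GSK126 fell with the 0h RNA of the gene around the region. Between protein-coding genes 992 of 2763 GSK126-only regions (35.9% [34.1 to 37.7]) had a base in 24h_GSK126, and in silent genes 249 of 734 (33.9% [30.5 to 37.5]). The share was 27.5% [21.7 to 34.0] of 218 in low genes, 9.80% [7.21 to 12.9] of 449 in medium genes and 1.48% [0.948 to 2.19] of 1626 in high genes. High genes were below the space between genes on 16 of 16 chromosomes. In the other 6h_GSK126 regions the same order was seen at a higher level, 86.3% between genes, 83.3% in silent and 30.9% in high genes. In the mirror set the shares at 24h of untreated cells were 42.5% between genes, 43.2% in silent, 51.8% [40.7 to 62.7] in low, 31.9% in medium and 7.39% [4.88 to 10.6] in high genes, so that low genes had the highest share there. High genes had a lower share than silent genes or the space between genes in each of 4 length classes. Between genes the share was 24.6% at 200 to 1000 bases, 31.9% at 1200 to 2000, 40.6% at 2200 to 4000 and 66.7% at 4200 to 8000. In silent genes it was 20.5%, 29.8%, 42.5% and 63.4%, and in high genes 2.56%, 1.46%, 1.13% and 1.49%. Against 24h_GSK126 regions with a score of 2 or more, the share in high genes was 0.80%, and for GSK126-only regions with a score of 3 or more it was 2.28%.

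Within high genes the regions present at 24h_GSK126 lay in genes below 100 CPM. Regions in genes of 10 to 30 CPM were present in 14 of 508 cases (2.76% [1.51 to 4.58]) and in genes of 30 to 100 CPM in 10 of 672 (1.49% [0.716 to 2.72]), shares whose intervals overlap. In genes of 100 to 300 CPM 0 of 346 were present (exact interval up to 1.06%), and in genes of 300 CPM or more 0 of 104 (up to 3.48%). The other 6h_GSK126 regions in these 4 ranges were present in 38.9%, 29.0%, 22.2% and 23.3% of cases.

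**Figure D2:**
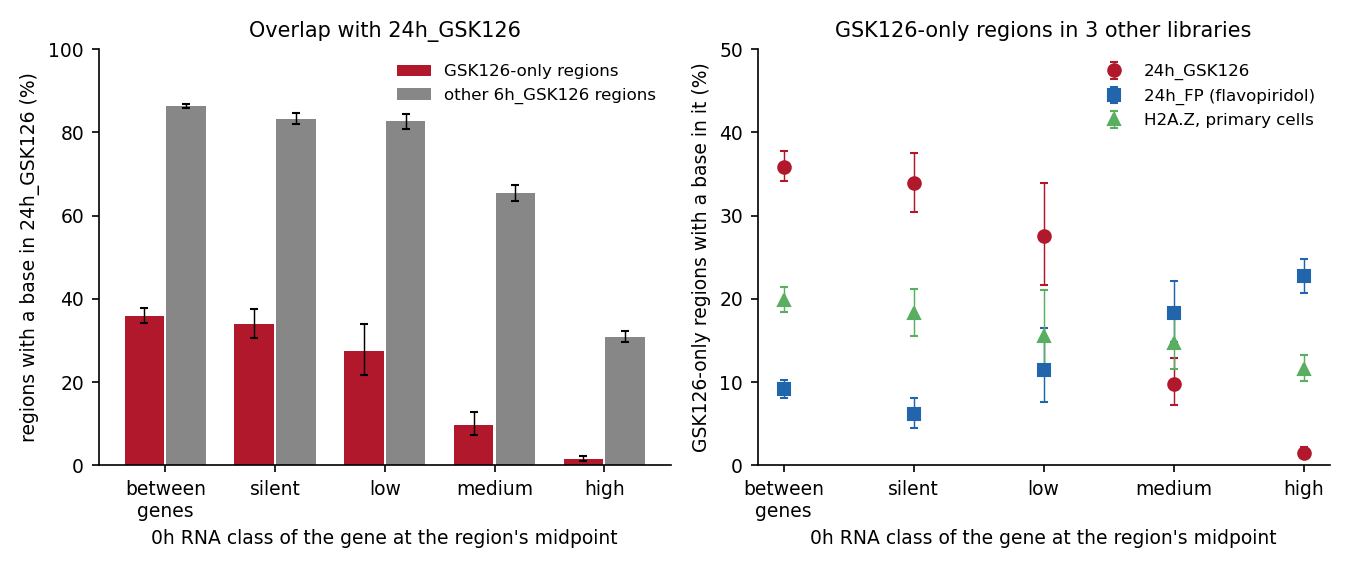
Left, percent of GSK126-only regions (red) and other 6h_GSK126 regions (grey) with a base in 24h_GSK126, by the 0h RNA class of the gene at the midpoint. Right, percent of GSK126-only regions with a base in 24h_GSK126, 24h_FP or H2A.Z. Bars on the values are exact 95% intervals over regions. The share in 24h_GSK126 falls from 35.9% between genes to 1.48% in high genes, and that in 24h_FP rises from 6.13% in silent to 22.7% in high genes. The selection bars regions of the untreated 24h library, which bears on the shares in 24h_FP.

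Overlap with the flavopiridol library had the opposite order. A base in 24h_FP was found for 774 GSK126-only regions (13.3% [12.5 to 14.2]), against 75.9% of the other regions. Over bases, 24h_FP covered 11.6% of GSK126-only sequence and 2.31% of the sequence outside untreated regions. The share was 6.13% [4.51 to 8.12] in silent genes, 11.5% [7.56 to 16.5] in low, 18.3% [14.8 to 22.2] in medium and 22.7% [20.7 to 24.8] in high genes, and 9.12% between genes. The other 6h_GSK126 regions showed no such rise, with 71.2%, 78.9%, 77.5% and 68.3% in the 4 classes. These were not barred from the untreated 24h library, which had a base in 83.4% of them in silent genes and 30.8% in high genes. That bar bears on the rise in GSK126-only regions, and its part was not tested. Few GSK126-only regions were in both 24h_FP and 24h_GSK126. Of the 774 regions with a base in 24h_FP, 122 (15.8% [13.3 to 18.5]) also had 1 in 24h_GSK126, against 24.9% [23.7 to 26.1] of the 5025 without. For the other regions the order was the reverse, 83.8% against 52.5%. The RNA class of the gene bears on the 15.8%. Of the 774 GSK126-only regions with a base in 24h_FP, 369 were in high genes. In that class 1.48% of all GSK126-only regions had a base in 24h_GSK126. Another 252 of the 774 were between genes, where 35.9% of all GSK126-only regions had one. How far gene class accounts for the difference between 15.8% and 24.9% was not tested.

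H2A.Z, a variant found at active and poised gene starts, was measured in other cells than the rest. A base in its regions was found for 975 GSK126-only regions (16.8% [15.9 to 17.8]), against 26.1% of the other regions, and H2A.Z covered 10.3% of GSK126-only bases and 7.61% of all bases outside untreated regions. Presence in 24h_GSK126 was 23.5% with H2A.Z and 23.7% without. Of all 5799 regions, 3147 (54.3%) had no base in 24h_GSK126, 24h_FP or H2A.Z, and 1047 (18.1%) had a base in 24h_GSK126 alone.

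Single genes with many regions, which are among the regions counted above, showed the same split between silent and highly expressed hosts. Of the 67 genes with 5 or more GSK126-only regions, 26 were high, and in 22 of these no region had a base in 24h_GSK126 (11 of 173 regions did). In the 23 silent ones 69 of 174 regions did, and 2 genes had none. In the 4 low genes 14 of 32 regions did, and in the 14 medium genes 19 of 118. Sgpp2, a sphingosine-1-phosphate phosphatase gene (chr1:78309549-78420289), kept 5 of 5 and Cfap299 8 of 11, both silent. Shroom3, which encodes an actin regulator of epithelial shape (chr5:92683435-92965759), kept 7 of 8 at 0.139 CPM. Tnr kept 6 of 11, Col25a1 6 of 14, Slc25a21 5 of 11 and Dlg2 5 of 22. Gmds kept 0 of 11, Mast4 0 of 14, the cytolinker gene Dst 0 of 8 at 399 CPM, and Col5a2, which encodes a chain of type V collagen, 0 of 6 at 891 CPM.

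Exceptions stood on both sides. Plekha6 (0.0406 CPM) and Stpg2 (no counts) were silent and kept 0 of 7 and 0 of 5. Slc39a10, a zinc transporter gene, had 74.5 ± 1.12 CPM and kept 4 of 6, and Tenm4, which encodes a teneurin of neuronal adhesion, had 47.8 ± 3.57 CPM and kept 3 of 5. The 4 kept regions of Slc39a10 lay 9.88 to 46.9% of the way from its start to its end. In all, the 24 GSK126-only regions present at 24h_GSK126 in high genes lay in 16 genes with 11.2 to 74.5 CPM, and none overlapped a silent or low protein-coding gene.

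**Figure D3:**
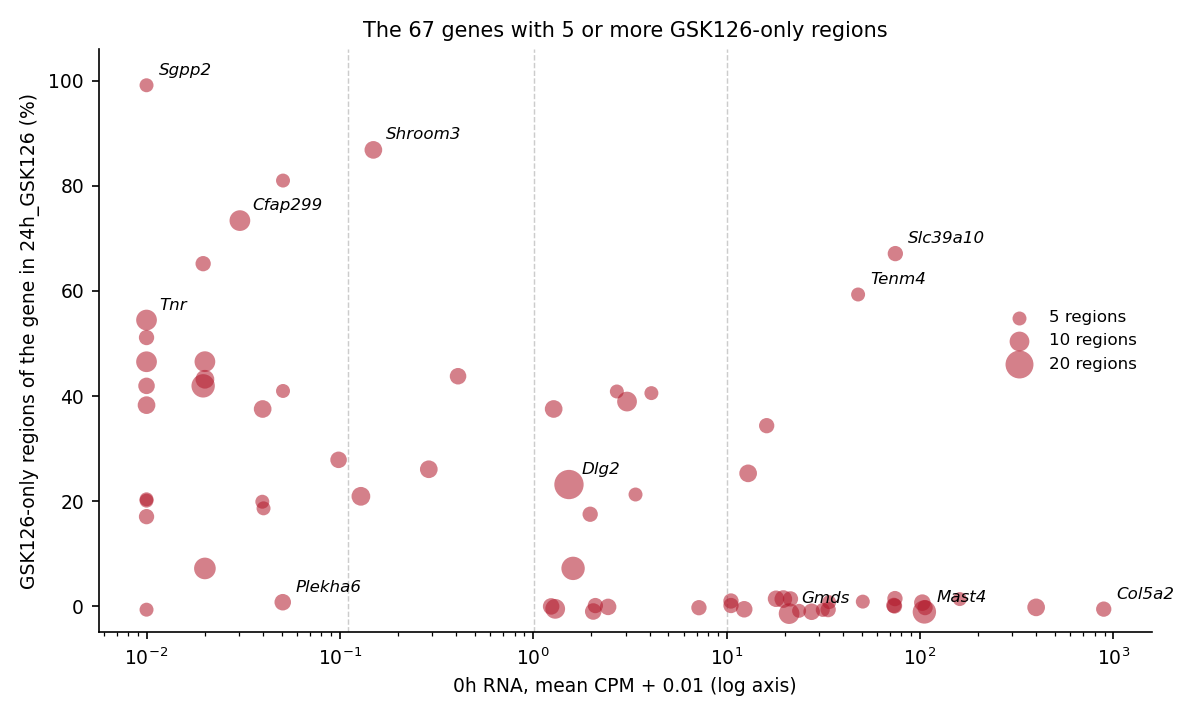
Each point is 1 of the 67 genes with 5 or more GSK126-only regions, with its area set by their number. The horizontal axis is mean 0h RNA (CPM + 0.01, log axis) and the vertical axis the percent of its regions with a base in 24h_GSK126, shifted by up to 1.5 points to separate points. Dashed lines are the class limits of 0.1, 1 and 10 CPM, and 22 of the 26 highly expressed genes sit at 0.

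GSK126-only regions were gathered in places. Of 2141 windows of 1 Mb, 1481 held at least 1, with a mean of 2.71, and 91 windows with 10 or more held 1182 regions. The window with the most, 34 regions over 129 kb, ran from 78 to 79 Mb of chromosome 1 and holds Pax3, a transcription factor gene of neural crest and muscle progenitors, and Sgpp2. Both genes were silent at 0h, Pax3 at 0.0297 CPM. In this window regions covered 173 kb in 6h_GSK126 and 148 kb in 24h_GSK126, against 7.6 kb at 0h, 26.8 kb at 6h, 24.6 kb at 24h, 20.2 kb at 5d and 28.2 kb in 24h_FP. The selection bears on this contrast, since the window was picked for its GSK126-only regions. Such regions make up 129 kb of the 173 kb and by rule have no base in the untreated libraries. The 24h_GSK126 and 24h_FP libraries had no part in that rule. Of the 34 GSK126-only regions in this window 18 had a base in 24h_GSK126, and 2 of the 10 longest regions of the whole set lay beside Pax3 (chr1:78054401-78066200 and chr1:78016201-78025400). Pax3 itself held 5, of which 1 was kept.

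Other dense windows differed in what was left at 24h. They too were picked for their GSK126-only regions, which bears on their coverage in 6h_GSK126 and at 6h. The window at 63 to 64 Mb of chromosome 2, around the potassium channel gene Kcnh7, held 25 regions of which 17 were kept, with 255 kb covered in 6h_GSK126, 258 kb in 24h_GSK126 and 60.2 kb at 6h. That at 148 to 149 Mb of chromosome 6 with Tmtc1 held 26, of which 15 were kept. At 54 to 55 Mb of chromosome 1, over the genes Ankrd44, Hecw2, Ccdc150, Pgap1 and Sf3b1, 1 of 20 was kept, and regions covered 147 kb in 6h_GSK126 and 65.4 kb in 24h_GSK126.

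**Figure D4:**
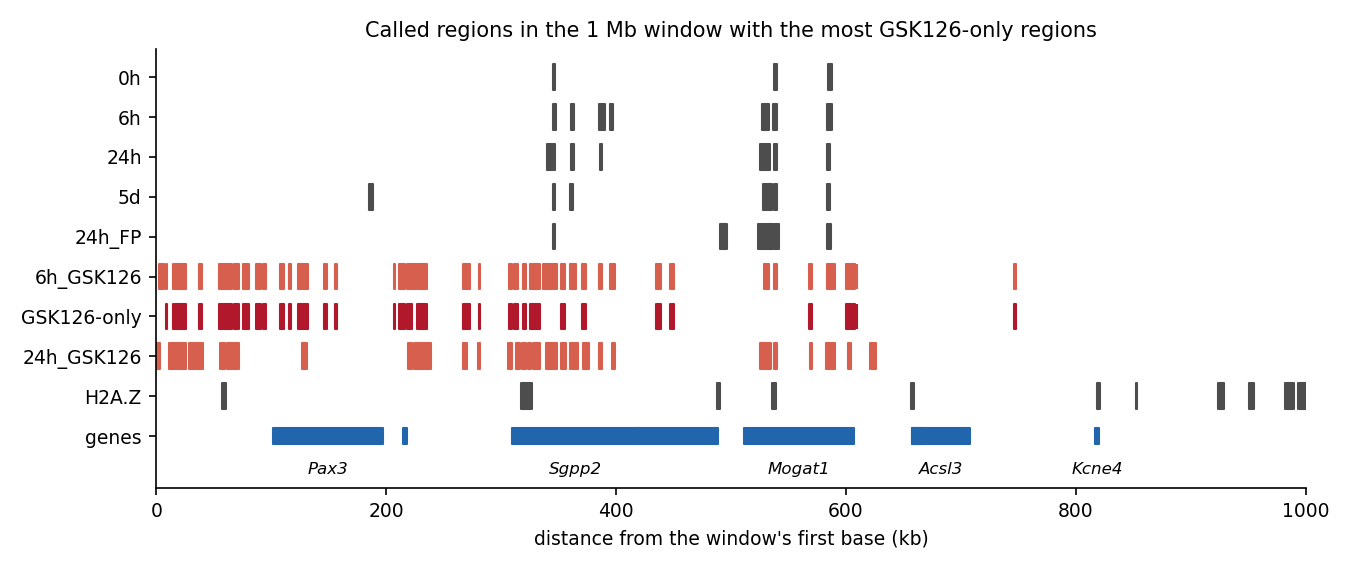
Called regions of each library (rows) along the 1 Mb window of chromosome 1 that holds Pax3 and Sgpp2, by distance from its first base in kb. Dark red marks GSK126-only regions, light red the GSK126 libraries, grey the others and blue protein-coding genes. The GSK126 libraries have 173 and 148 kb of regions here and the other macroH2A2 libraries 7.6 to 28.2 kb. The window was picked for its GSK126-only regions, which by rule are absent from the untreated libraries, and this bears on the contrast.

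Hosts were also counted in gene lists by function, described by counts alone. Of Hox genes and other developmental transcription factors 15 of 101 were hosts (14.9%, against 11.5% of all protein-coding genes), and GSK126-only regions took 20.6 bases per kb of their span, against 7.79 over all. Fibroblast identity genes had 23.3 bases per kb and imprinted genes 20.8, and the remaining lists had 8.69 or less. Besides Pax3 (5 regions, 17.6 kb) the hosts among developmental factors included Hoxa3 (4 regions, 10.4 kb, 2.59 ± 0.179 CPM), Hoxb3 (2 regions, 17.9 ± 0.272 CPM) and Gata4, a cardiac and endodermal factor gene (2 regions, no counts). Hoxa3 was covered over 23.6% in 6h_GSK126 and 24.1% in 24h_FP and over 0% in the 4 untreated libraries and 24h_GSK126. Of the 26 regions in this list 5 were kept. Of Polycomb group genes 6 of 29 were hosts, among them Rbbp4, a histone-binding subunit shared with other complexes (439 ± 14.6 CPM), with 49.2% of its span covered in 6h_GSK126, 4.95% at 6h and 0% in the other 5 libraries, and 0 of their 7 regions were kept. Of fibroblast identity genes 6 of 28 were hosts. Col5a2 was covered over 31.9% in 6h_GSK126 against 10.1% at 6h, and Prrx1, a mesenchymal transcription factor gene, over 24.3% against 22.3%. Fstl1, a secreted follistatin-like glycoprotein gene, was at 27.1% against 22.1%, and 1 of 12 regions of this list was kept.

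Lists of neural genes held a higher share of hosts than all protein-coding genes (11.5%). They held few bases per kb, and their genes were long. Of all protein-coding genes of 100 kb or more with an RNA row, 41.9% were hosts, against 35.1%, 32.6% and 25.0% of the lists below, in order. Of voltage-gated and other neuronal ion channels 13 of 37 were hosts, with a median span of the list of 253 kb and 6.41 bases per kb, and 9 of 28 regions were kept. Scn3a kept its single region over 14.6 kb, Cacna2d3, a calcium channel subunit gene, kept 2 of 4 and Scn2a 2 of 4. Of neuronal adhesion and synapse organisers 15 of 46 were hosts, with a median span of 891 kb and 2.77 bases per kb, and 11 of 58 regions were kept, among them 0 of 7 in the scaffold gene Magi2, 1 of 4 in the netrin receptor gene Unc5c and 0 of 5 in the protocadherin gene Pcdh9. Of neurotransmitter receptors 10 of 40 were hosts, with 2.25 bases per kb and 3 of 16 regions kept. The silent glutamate receptor gene Grik1 kept 1 of 1, and Gria1 (1.05 ± 0.329 CPM) kept 0 of 2.

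Of imprinted genes 5 of 22 were hosts. Ube3a, a ubiquitin ligase gene (220.0 ± 7.28 CPM), was covered over 30.5% in 6h_GSK126 and 0% in the 6 other libraries, and Sgce, the epsilon-sarcoglycan gene (25.8 ± 0.231 CPM), over 8.78% and 0%. Zdbf2, without counts at 0h, held 3 regions of which 1 was kept. Of 20 germline genes 0 were hosts, and of interferon and endogenous retrovirus response genes 1 of 23, Ddx58.

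RNA of the host genes was compared over the time of dox in untreated cells, the treatment in which these regions were absent. Counts of all 9 libraries were fitted with edgeR's quasi-likelihood test over 13785 genes, with Benjamini-Hochberg adjusted p under 0.05 as a call. Nothing in the sources says whether the 3 replicates are separate cultures, so p-values measure the spread between these libraries. At 6h, 1508 of the 2026 host genes were tested, 333 rose (22.1%, against a background of 20.8% of all genes tested) and 352 fell (23.3%, against 18.2%). Of tested protein-coding genes on the same 16 autosomes, 23.5% rose and 19.8% fell. The median log2 change of host genes was -0.01, against 0.01 for all genes, and 9 hosts rose and 8 fell by 2-fold or more. Of all 13785 genes tested, 68 rose and 65 fell by that much. Among highly expressed genes, 25.1% of hosts rose and 26.3% fell, against 29.6% and 21.9% of other high genes. These shares are near those of all genes.

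Of the largest called increases at 6h, among host genes averaging at least 1 CPM, 4 are given first. Fgf2, a fibroblast growth factor gene, had 41.9, 39.8 and 38.9 CPM at 0h, 89.4, 92.0 and 91.7 at 6h, and 36.1, 35.6 and 35.4 at 24h. The 6h libraries did not overlap the others, and the log2 change was 1.18 (SE 0.035, edgeR adjusted p = 1.35e-20). Enpp1, a nucleotide pyrophosphatase gene, rose by 0.95 (SE 0.044), Trabd2b by 0.99 (SE 0.13), and Col15a1, a basement membrane collagen gene, by 1.33 (SE 0.25) from 0.646 to 1.64 CPM. At 24h the log2 changes of these 4 were -0.17 to 0.20, and the small decrease of Fgf2 (-0.17) was a call. The single GSK126-only region of Col15a1 was kept and those of Fgf2, Enpp1 and Trabd2b were not.

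Among the largest decreases at 6h was Gas1, a growth arrest gene of only 3.13 kb, with 60.2, 50.9 and 56.6 CPM at 0h and 25.6, 20.7 and 25.6 at 6h. Its log2 change was -1.22 (SE 0.064, edgeR adjusted p = 7.4e-15), and no library of the 2 times overlapped. Gas1 was at -0.30 (SE 0.058) at 24h, when it was still called. Ccser1, the second host by bases, fell by 0.96 on the log2 scale (SE 0.22), from 1.58 to 0.801 CPM. Ank2, which encodes ankyrin-B, fell by 0.90 (SE 0.092), the kainate receptor gene Grik2 by 0.87 (SE 0.18) and Tenm4 by 0.77 (SE 0.070), and these 4 were not called at 24h.

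**Figure D5:**
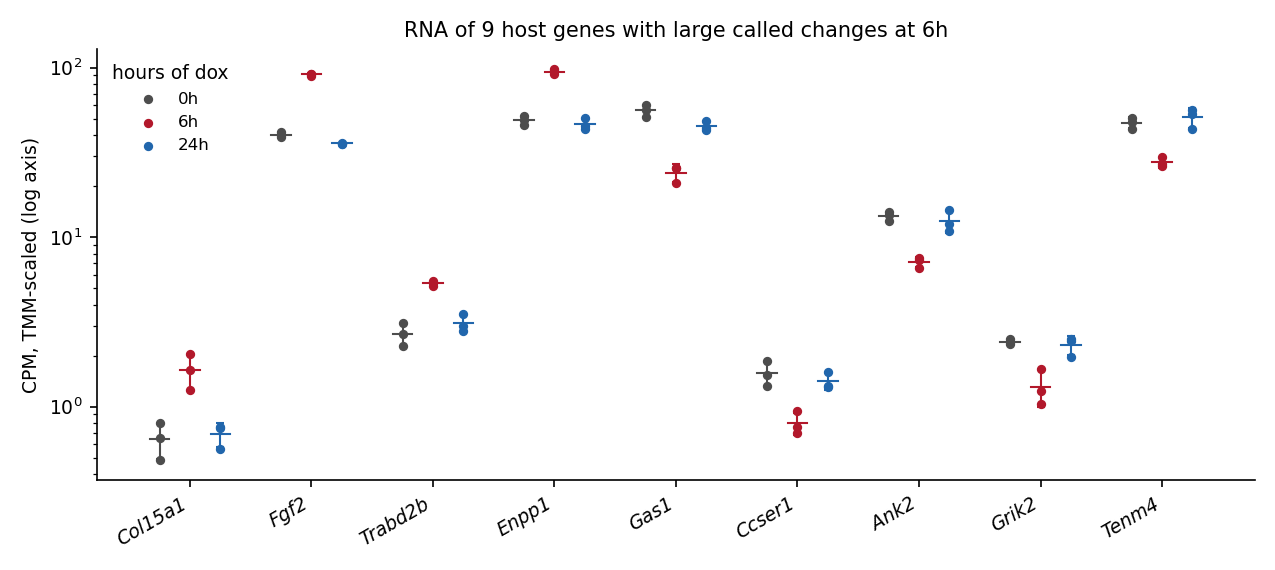
RNA in TMM-scaled CPM (log axis) of 9 host genes among those with the largest called changes at 6h, 4 increases (left) and 5 decreases (right). Points are the 3 libraries of each time (0h grey, 6h red, 24h blue), and lines the mean and SD. For Fgf2 the 6h libraries stand at 89.4 to 92.0 CPM and those at 0h and 24h at 35.4 to 41.9.

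At 24h, 28 host genes rose (1.86%, against a background of 4.17%) and 52 fell (3.45%, against 2.87%), and none changed by 2-fold. Of all 13785 genes tested, only 12 rose and 1 fell by that much. Single libraries moved these 80 calls. Leaving out replicate 1 or 2 of 0h left 47 or 39, and leaving out replicate 1, 2 or 3 of 24h gave 126, 41 or 45. The largest decreases were in Unc5c (-0.31, SE 0.058), Gas1, the glutamate receptor gene Grik5 (-0.26, SE 0.070), Ptn, which encodes the growth factor pleiotrophin (-0.21, SE 0.051), and the axon guidance gene Slit3 (-0.21, SE 0.041). Among the increases were Cycs, the cytochrome c gene, at 0.25 (SE 0.049), Dnajc15 of mitochondrial protein import at 0.29 (SE 0.066), Lyrm4 of iron-sulphur cluster assembly at 0.24 (SE 0.067) and Pop5, an RNase P subunit gene, at 0.23 (SE 0.060). Lars2, the mitochondrial leucyl-tRNA synthetase gene, changed by 0.54 (SE 0.17, edgeR adjusted p = 0.0472), but its libraries stood at 216, 358 and 389 CPM at 24h and at 213, 236 and 212 at 0h, and DESeq2 did not call it (adjusted p = 0.425). Over all alternatives of this value the adjusted p ran from 1.95e-84 without the filter on low counts to 0.425. Lars2, Lyrm4, Pop5, Grik5 and Ptn each lost their call without at least 1 library, with adjusted p of at most 0.248 there. Without replicate 1 of 0h Ptn was at -0.12 (edgeR adjusted p = 0.145), and DESeq2 called neither Ptn (adjusted p = 0.149) nor Lyrm4 (adjusted p = 0.0532).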

How the data were processed

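Native ChIP-seq regions of macroH2A2-GFP (1 library per condition) and H2A.Z, and RNA-seq in 3 replicates per time, were used as deposited. Per the submitters' processing notes, Bowtie 1.1.2, SICER 1.1 and STAR 2.5.2b were among the authors' tools and GRCm38 was the build. The names of the region lists give a window of 200 and a gap of 800 bases. Each deposited region has the authors' score, a whole number of 1 or more. What it is relative to is not given in the sources used here. The lists also hold another column (unit: other), a running number that was not used. The authors deposited raw counts per gene, and column 4, with 96.6% or more of stranded counts, was taken. In the RNA libraries, 21.2 to 23.1% of reads were in no gene.

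Overlaps were computed in Python 3.11.15 on 16 autosomes, any shared base counting, with RefSeq GRCm38.p6 genes (gene starts on chromosome 18 were not used here). Expression classes use plain CPM, RNA tests edgeR 4.0.16 (R 4.3.3, filterByExpr, TMM, all 9 libraries). Overlap code and the RNA test were tested on simulated data, where 82% of 50 genes changed 1.25-fold were recovered. Named genes and regions follow a rule: 10 highest scores, 10 longest, 5 highest scores within 1 kb of a start, 10 genes with most bases, 5 highest by CPM, 5 with most kept bases, up to 4 per list with 3 kb or more, and 5 RNA changes each way. The 67 genes with 5 or more regions, the windows and the exceptions were chosen after their values were seen. The regions and lists were chosen with earlier results of these data known. The input library was not used. A few genes that the rule names are not reported here.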

Additional observations from a re-analysis of the deposited data

How the results depend on the processing

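The number of GSK126-only regions was 5799, and 1905 with a score minimum of 3 and 12568 with 1. The share in genes (64.1%) was 58.7% with a score minimum of 3, 67.9% for regions of 2 kb or more, 60.8% by midpoint and 54.4% for protein-coding genes. The share present in 24h_GSK126 (23.7%) was 25.4%, 27.5% and, against its regions with a score of 2 or more, 15.0%. The silent share of hosts (22.8%) was 30.4%, 19.7% and, below 0.5 CPM, 27.8%. Chosen after seeing the data, the share present in high genes (1.48%) was 0.800 to 2.28% and that between genes 23.2 to 44.5% over 5 such settings. Host genes called at 6h (685) were 602 to 717 without 1 library and 694 with a replicate block, and those at 24h (80) were 39 to 126 and 87. Replicate numbers did not pair the samples (correlations of -0.018 to 0.039 over 9 pairs). None of the 300 alternative fits of the 20 named RNA changes reversed one, and 20 lost a call. Region depth is unknown, so weak regions missed in 1 library cannot be told apart from absent ones.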

Other observations

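The share of GSK126-only regions among the regions of 6h_GSK126 with a score of 2 or more ran from 9.22% on chromosome 9 to 22.9% on chromosome 14. The share of them present in 24h_GSK126 ran from 16.7% on chromosome 14 to 39.8% on chromosome 2.

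Outside the Mir344 family, 4 further miRNA hairpins lay wholly inside GSK126-only regions, among them Mir335, which is within the imprinted gene Mest (chr6:30741299-30741396), and Mir3109 in Anxa2 (chr9:69456944-69457031). With the 5d regions called with 1000-base windows, 793 GSK126-only regions (13.7%) had a base in a 5d region, although none had one with 200-base windows.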
